A study of Mus musculus with 2 samples.

Results

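Homocysteine thiolactone (HTL), a cyclic thioester of homocysteine that attaches to lysine residues of proteins, is hydrolysed by enzymes that open its ring. The genes described here are *Blmh* and *Bphl*, which encode such enzymes inside cells, and the paraoxonase family, *Pon1*, *Pon2* and *Pon3*, whose members differ in their activity towards HTL; the 5 are called hydrolase genes below as a group name. The rule takes them by symbol and uses no measured value, although it was written with earlier results of these data known. Of these 5 genes, 3 (*Blmh*, *Bphl* and *Pon2*) were taken from a table of 16803 genes, and *Pon1* and *Pon3* were not analysed here. Total RNA was sequenced from NE4C cells, an established mouse neural stem cell line that was cloned from embryonic brain vesicles of mice lacking p53, so that both conditions are cultures of 1 clone. The control was the normal culture, and the other culture was treated with HTL; both were grown in Eagle MEM on poly-L-lysine. The paper describes a serum starvation before HTL was added to NE4C cells. It does not say whether either culture sequenced here had that step, so a difference in handling besides HTL cannot be told apart. Neither dose nor time of treatment is in the labels, and no further allele or agent is. Each condition had 1 library. The spread between cultures is therefore unknown, and all tests and intervals describe the counting error of this pair of libraries.

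HTL forms when methionyl-tRNA synthetase, in editing away homocysteine mistaken for methionine, closes the amino acid into a ring. Bleomycin hydrolase, the product of *Blmh*, is a cysteine aminopeptidase of the cytosol and a known intracellular HTL hydrolase. Bphl, a serine hydrolase of the alpha/beta fold found in mitochondria and also known as valacyclovir hydrolase, hydrolyses HTL as well. Paraoxonase 1 does so in serum, bound to high density lipoprotein, whereas paraoxonase 2 is an intracellular membrane lactonase with little activity towards HTL.

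The promoters of the 3 genes are shown first, as the sequence around 1 annotated start of each; starts were not measured here, and a gene may have others. All 3 matched the RefSeq promoter table (GRCm38.p6). Each run holds 250 bases before and 50 bases after a transcript start and is read 5′ to 3′ on the strand of the gene. Capitals mark GGGCGG, the GC box bound by Sp factors, and TGACNNNGC, the core of the antioxidant response element bound by NRF2, on either strand. The *Blmh* promoter lies at chr11:76945406-76945705 (plus strand), that of *Bphl* at chr13:34037391-34037690 (plus strand) and that of *Pon2* at chr6:5298291-5298590 (minus strand).
Blmh: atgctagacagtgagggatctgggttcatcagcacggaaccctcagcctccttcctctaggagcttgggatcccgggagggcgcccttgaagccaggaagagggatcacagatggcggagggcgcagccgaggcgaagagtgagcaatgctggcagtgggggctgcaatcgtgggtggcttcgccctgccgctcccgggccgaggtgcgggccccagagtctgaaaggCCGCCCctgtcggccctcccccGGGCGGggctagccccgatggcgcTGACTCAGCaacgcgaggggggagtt
Bphl: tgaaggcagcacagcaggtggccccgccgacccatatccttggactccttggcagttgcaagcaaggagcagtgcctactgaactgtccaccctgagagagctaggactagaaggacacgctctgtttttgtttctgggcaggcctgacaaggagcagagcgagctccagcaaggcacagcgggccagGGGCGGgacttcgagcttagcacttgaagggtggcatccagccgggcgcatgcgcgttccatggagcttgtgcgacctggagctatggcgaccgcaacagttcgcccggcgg
Pon2: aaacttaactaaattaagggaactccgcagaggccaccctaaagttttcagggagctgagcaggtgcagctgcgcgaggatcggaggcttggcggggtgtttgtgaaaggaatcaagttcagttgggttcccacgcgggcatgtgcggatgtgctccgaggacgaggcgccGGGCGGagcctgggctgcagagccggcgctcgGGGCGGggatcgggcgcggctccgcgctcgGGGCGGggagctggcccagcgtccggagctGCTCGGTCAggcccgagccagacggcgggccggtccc

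All 3 promoters were rich in G and C, at 67.7% for *Blmh*, 61.7% for *Bphl* and 67.7% for *Pon2*, beside a median of 52.7% over 32851 mouse promoters of the same length. They held 21, 17 and 31 CG dinucleotides respectively, where the median promoter held 7. A GC box stood in each of the 3, with 2 matches in *Blmh*, 1 in *Bphl* and 3 in *Pon2*; 35.7% of all promoters held at least 1. The antioxidant response element core was found in *Blmh* as TGACTCAGC, beginning 24 bases after the start, and in *Pon2* on the opposite strand, 13 bases after the start. It occurred in 12.4% of all promoters. The *Blmh* match contains TGACTCA, the motif of AP-1. None of the 3 windows held CCAAT (37.4% of all promoters), TTGCATCA, an ATF4 element (0.895%), or the ER stress element, which begins with CCAAT and ends with CCACG (0.119%). All motifs were sought on both strands. These motifs were picked with the sequences in view, and a match describes letters, not a bound site.

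In NCBIM37 (mm9, the build given in the labels) *Blmh* (gene ID 104184) spans chromosome 11, 76738311 to 76800881, on the plus strand. Its coding transcript Blmh-001 has 12 exons and 1365 coding bases. *Bphl* (gene ID 68021) spans chromosome 13, 34129502 to 34165943, on the plus strand, and its transcript Bphl-201 has 7 exons and 873 coding bases. *Pon2* (gene ID 330260) spans chromosome 6, 5214147 to 5248455, on the minus strand, with 9 exons and 1062 coding bases in Pon2-001. No exon of another gene in GENCODE vM1 overlapped an exon of the 3, so that the unknown use of strand in counting touches none of them there. The transcript lengths in the table were 2355, 1224 and 1850 bases.

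The libraries held 10350668 (control) and 9102073 (HTL treatment) estimated reads. Reads are also given as CPM, the number in a library scaled to 1000000 reads; a count of 0 is taken to allow up to 3 reads, or 0.290 CPM (control) and 0.330 CPM (HTL treatment), a one-sided limit that lies below the upper end of a two-sided Poisson interval at 0. The neural progenitor identity was checked on 14 markers, of which 12 had at least 10 reads, *Nes* with 1617 and 1365 among them, whereas *Hes5* and *Fabp7* had at most 2 reads in either library. Of those 12 markers, 4 were called lower (*Vim*, *Sox1*, *Sox2* and *Sox3*) and 1 higher (*Notch1*) in the HTL treatment library where the log2 ratio was 1 or more in size and the adjusted p (exact binomial test, Benjamini-Hochberg) did not exceed 0.001, beside 7.98% lower and 2.81% higher over all genes tested. The call of *Vim* was lost under each other scaling (log2 ratio -1.01 with column totals, -0.88 under TMM). None of the 4 hepatocyte markers analysed, out of 10 listed, reached 10 reads in both libraries together (summed CPM 0.386 and 1.10). All 6 neuronal markers, 2 of 4 astrocyte markers and 1 of 2 microglial and blood markers analysed did, with *Dcx* called lower and *Aldh1l1* called higher among them. On FPKM + 1 (FPKM is scaled to transcript length and library size), the calls of *Dcx*, *Aldh1l1*, *Vim*, *Sox1* and *Notch1* fell short of the fold cutoff. Summed CPM in the control and HTL treatment libraries was 798 and 595 for the neural progenitor markers, 55.6 and 60.2 for the neuronal, 80.0 and 83.7 for the astrocyte and 1.84 and 1.76 for the microglial and blood markers. *Tubb3* gave 28.6 and 43.5 CPM of the neuronal sum, whereas 4 of the 6 neuronal markers had a log2 ratio below 0 (median -0.67). *Slc1a3* gave 77.2 CPM of the astrocyte sum in each library. *Gfap* and *Alb* had 2 reads in the control and 0 in the HTL treatment library. The part of such differences in the values below was not tested. In bulk RNA, fewer cells of a type cannot be told apart from less RNA per cell.

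The first question was which of the hydrolase genes NE4C cells transcribe. *Blmh* had 1820 control reads and 1829 after HTL. That was 176 CPM (exact 95% Poisson interval 168 to 184) and 201 CPM (192 to 210), and the deposited FPKM, which is scaled to transcript length, was 74.5 and 85.0. *Blmh* stood above 94.3% (control) and 94.8% (HTL treatment) of all genes of the table by FPKM.

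*Pon2* had 132.84 and 66.80 estimated reads, rounded to 133 and 67, and 12.8 CPM (10.8 to 15.2) and 7.36 CPM (5.70 to 9.35). Its FPKM was 6.95 in the control and 3.97 in the HTL treatment library, above 59.5% and 52.5% of genes. RSEM shares reads between similar transcripts, and the estimates of *Pon2* were fractional, whereas those of *Blmh* and *Bphl* were whole. *Bphl* had 28 and 26 reads, or 2.71 CPM (1.80 to 3.91) and 2.86 CPM (1.87 to 4.19). At 2.24 and 2.36 FPKM it was above 41.4% and 44.8% of genes, below the median gene of the table (4.0 and 3.36 FPKM).

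The order by FPKM was the same in both libraries, from *Blmh* through *Pon2* down to *Bphl*. *Blmh* was 10.7 times *Pon2* and 33.3 times *Bphl* in the control library, and 21.4 and 36.0 times in the HTL treatment library. Of the FPKM summed over the 3 genes (83.7 in the control and 91.3 in the HTL treatment library), *Blmh* gave 89.0% and 93.1%, *Pon2* 8.30% and 4.35%, and *Bphl* 2.68% and 2.58%. These are shares of RNA, and enzyme activity was not measured. A single library a condition gives no spread on which to say whether *Pon2* and *Bphl*, the nearest neighbours in that order, differ between cultures.

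**Figure D1:**
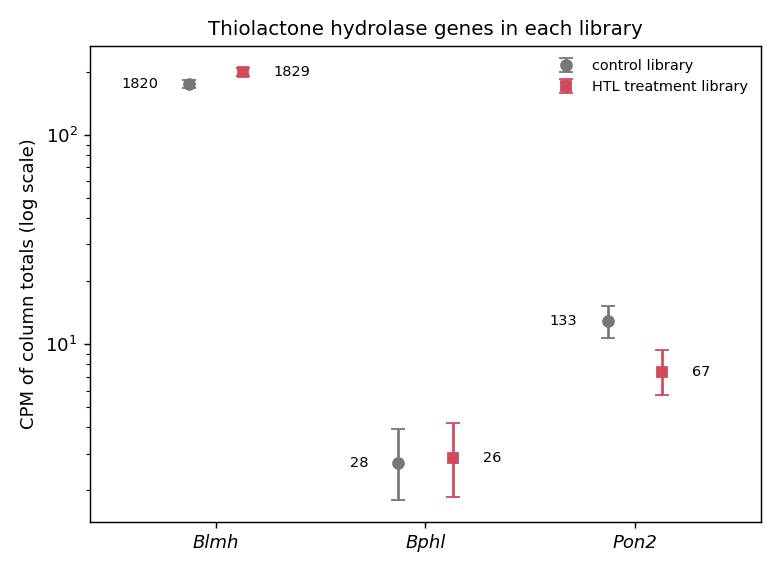
Level of each thiolactone hydrolase gene in CPM of the column totals (log axis) in the control library (grey circles) and the HTL treatment library (red squares); bars are exact 95% Poisson intervals, which cover counting error only, and the numbers beside the points are reads. The intervals of the 2 libraries do not overlap for *Blmh* and *Pon2*, and overlap widely for *Bphl*, which had 28 and 26 reads.

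The next comparison asked whether the hydrolase genes differed between the HTL treatment and control libraries. *Pon2* was lower after HTL and *Blmh* slightly higher, both by less than the fold cutoff of the study, and *Bphl* could not be resolved at its depth. The reads of each gene were compared with the library totals by a two-sided exact binomial test over the 13442 genes whose reads in both libraries summed to 10 or more, and calls were made at the cutoffs given above. None of the 3 hydrolase genes was called, whereas 10.8% of all genes tested were (2.81% higher and 7.98% lower). The p cutoff alone was passed by 2 of the 3, as it was by 38.6% of all genes, and the same 2 had an unadjusted p below 0.05, as did 60.2% of all genes. When cultures were assumed to vary by a coefficient of 0.1, 0.2 or 0.4 (edgeR's exact test), 0 of the 3 had an adjusted p of at most 0.001, beside 10.1%, 0.893% and 0.0446% of all genes.

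*Pon2* had a log2 ratio of -0.80, with an exact Clopper-Pearson 95% interval of -1.25 to -0.37, a level of 0.575 times the control (0.421 to 0.774). Its adjusted p in the exact binomial test was 0.000443. The interval crosses the cutoff of -1. Of all genes tested, 17.5% had a lower log2 ratio than *Pon2*.

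*Blmh* had nearly equal reads in both libraries, and its log2 ratio of 0.19 (0.098 to 0.29) came from the smaller total of the HTL treatment library, which held 87.9% of the reads of the control. The level was 1.14 times the control (1.07 to 1.22), with an adjusted p of 0.000172 in the exact binomial test. The whole interval of *Blmh* lay within the cutoffs of -1 and 1. *Bphl* had a log2 ratio of 0.077 with an interval from -0.75 to 0.90, that is, from 0.595 to 1.87 times the control (adjusted p 0.930, exact binomial test). At 28 and 26 reads a difference smaller than that was not detectable.

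**Figure D2:**
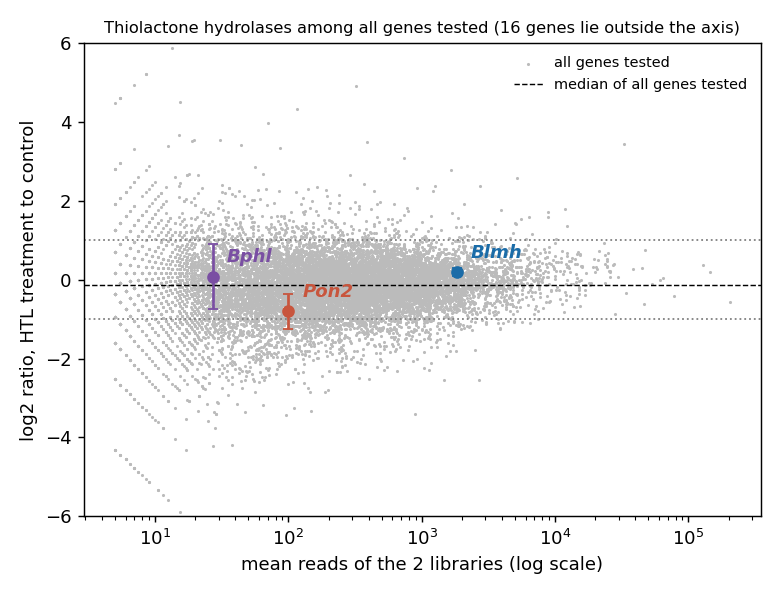
Log2 ratio of HTL treatment to control against the mean reads of both libraries (log axis) for all genes tested (grey) and for *Blmh*, *Bphl* and *Pon2* with their exact 95% intervals; the dashed line is the median of all genes and dotted lines mark the cutoffs of -1 and 1. *Blmh* and *Bphl* lie above the median line of -0.14 and *Pon2* lies below it, all 3 inside the cutoffs.

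Over all genes tested, log2 ratios had a median of -0.14 and quartiles at -0.60 and 0.28. Other scalings raised log2 ratios by about 0.13 (TMM), 0.14 (median of ratios) or 0.093 (upper quartile), and by somewhat less at few reads. They turned 378 higher and 1072 lower calls into 552 and 800, 559 and 788, or 498 and 860. Relative to the median gene, *Blmh* stood at 0.33, *Bphl* at 0.21 and *Pon2* at -0.66. *Pon2* stayed below 0 under all 4 scalings. Under TMM, *Pon2* had a log2 ratio of -0.67, with an adjusted p of 0.00393 in the exact binomial test, which no longer passed the cutoff.

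**Figure D3:**
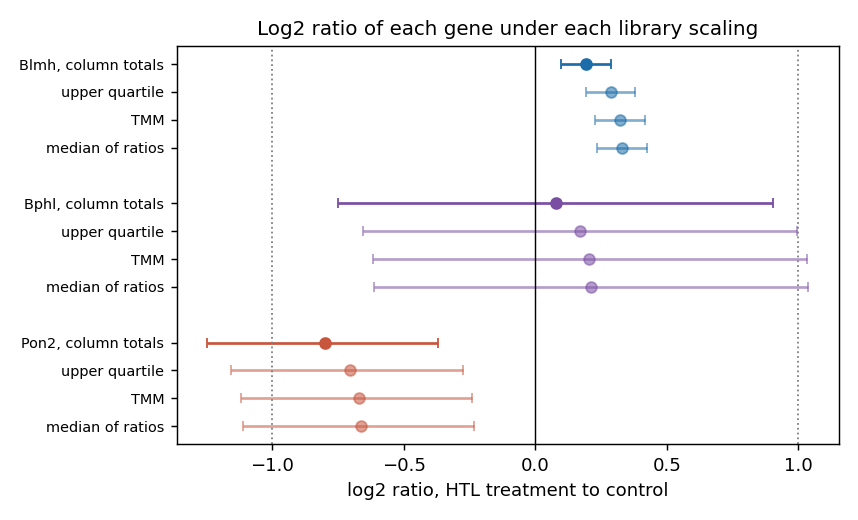
Log2 ratio of HTL treatment to control for each gene under 4 ways of scaling the libraries, with exact 95% Clopper-Pearson intervals; dotted lines mark -1 and 1. *Blmh* moves from 0.19 with column totals to 0.33 with the median of ratios and *Pon2* from -0.80 to -0.66, and neither interval reaches 0 under any of them.

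Pairs of the genes were also compared with each other, which needs no scaling of the libraries. By Fisher's exact test on the reads, the ratio of *Blmh* to *Pon2* was 1.99 times higher in the HTL treatment library (95% interval 1.46 to 2.74, adjusted p 1.26e-05 over 3 pairs). The ratio of *Bphl* to *Pon2* was 1.84 times higher (0.954 to 3.54, exact adjusted p 0.0846), and that of *Blmh* to *Bphl* 1.08 times higher (0.609 to 1.93, exact adjusted p 0.786). Only the first of the 3 pairs differed beyond counting error. The wide intervals of the pairs with *Bphl* leave room for differences of up to 3.54 times with *Pon2* and 1.93 times with *Blmh*.

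The genes that make and consume the substrate were compared beside the hydrolases. Of 18 genes of homocysteine and HTL metabolism, *Bhmt* and *Bhmt2* were not analysed here, and 15 had at least 10 reads. None of the 15 was called higher and 4 were called lower, beside 2.81% and 7.98% of all genes. By the p cutoff alone 3 were higher (*Mars*, *Mmadhc* and *Cth*) and 6 lower, beside 14.5% and 24.1% of all genes. Under TMM, 5 were higher and 6 lower, beside 20.1% and 18.5% of all genes. Their median log2 ratio was -0.29, beside -0.14 over all genes. The 4 called lower were *Mat2a*, which makes S-adenosylmethionine from methionine, *Ahcy*, which releases homocysteine, *Mtrr*, which keeps methionine synthase active, and *Mmachc*, which processes its cobalamin cofactor. *Mat2a* fell from 2534 to 385 reads (log2 ratio -2.53, interval -2.69 to -2.38). The other 3 had 158 and 61 reads (*Ahcy*, -1.18), 424 and 156 (*Mtrr*, -1.25) and 396 and 156 (*Mmachc*, -1.16). The estimates of these 3 were fractional before rounding, like those of *Pon2*, whereas those of *Mat2a* were whole. With FPKM + 1 the call of *Ahcy* was lost. At an assumed coefficient of variation of 0.2 only 1 of the 4 calls was left, and at 0.4 none. *Cth*, the last enzyme of transsulfuration, had the highest log2 ratio of the list, 0.81 (0.72 to 0.90), short of the fold cutoff.

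*Mars*, the methionyl-tRNA synthetase of the cytosol that forms HTL, had 1137 and 1393 reads, and 37.1 and 51.6 FPKM. Its log2 ratio was 0.48 (0.36 to 0.59), with an adjusted p of 7.99e-16 in the exact binomial test. Its mitochondrial counterpart *Mars2* stood at -0.38 (-0.79 to 0.029) on 127 and 86 reads. *Cbs*, which commits homocysteine to transsulfuration, stood at -0.24 on the same scale with 477 and 355 reads (-0.44 to -0.039; exact adjusted p 0.0337), and at -0.11 (-0.31 to 0.091; exact adjusted p 0.371) under TMM. Per length, *Mars* stood at 0.498 times *Blmh* in the control and 0.606 times in the HTL treatment library. By Fisher's exact test the ratio of *Mars* to *Blmh* was 1.22 times higher in the HTL treatment library (1.10 to 1.35), and that of *Cbs* to *Blmh* was 0.741 times the control value (0.634 to 0.864). Both had an adjusted p of 0.000141 over 2 pairs (Fisher's exact test), which does not cover the choice of these pairs after the values were seen. By FPKM the list and 1 hydrolase made 17 genes, among which *Blmh* ranked 3 and 2 (control and HTL treatment), *Pon2* 12 and 13, and *Bphl* 16 in both.

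Enzymes of the same classes as *Blmh* and *Bphl* came next. *Blmh* had the highest FPKM of 26 genes when set among 25 aminopeptidases and oligopeptidases, the nearest being *Metap2* in the control library (70.2 FPKM) and *Lap3* in the HTL treatment library (67.5 FPKM). Of the 24 of these with at least 10 reads, 1 was called lower, beside 7.98% of all genes: *Nln*, an oligopeptidase known as neurolysin, at -1.10 (-1.44 to -0.78) on 269 and 110 reads. That call was lost under TMM, the median of ratios and centring on transcript length. None of the 24 was called higher. The highest log2 ratio was that of *Anpep*, 1.36 (-0.16 to 3.31), on 5 and 12 reads. By the p cutoff alone, 2 of the 24 were higher and 9 lower, beside 14.5% and 24.1% of all genes, and the list had a median of -0.25. Under TMM, 2 were higher and 7 lower, *Tpp2* and *Ide* no longer passing (adjusted p 0.132 and 0.00872, exact binomial test).

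Papain-like cysteine proteases, which share the catalytic fold of *Blmh* but act mainly in lysosomes, were higher in the HTL treatment library where they passed the test. Of 10 genes, 9 were taken from the table and 6 had at least 10 reads. Of those 6, 4 passed the p cutoff, all higher: *Ctsb* (log2 ratio 0.64), *Ctsl* (0.80), *Ctsz* (0.61) and *Ctsf* (1.06). Such higher values were found in 14.5% of all genes. Of these 4, *Ctsf*, with 89 and 164 reads, was past the fold cutoff as well, beside 2.81% of all genes called higher. That call was lost with FPKM + 1 and at an assumed coefficient of variation of 0.1, 0.2 or 0.4. *Ctsh* had the highest log2 ratio of the 6, 1.34 (0.26 to 2.62), on 10 and 23 reads, and did not pass the p cutoff (exact adjusted p 0.0177). The lowest of the 6, *Ctsc*, had a log2 ratio of 0.0063 (-0.21 to 0.22). The list had a median of 0.72. Among these genes *Blmh* ranked 2 by FPKM in the control and 3 in the HTL treatment library, behind *Ctsl* (97.2 and 168 FPKM) and, in the latter, *Ctsz* (89.0 FPKM).

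*Bphl* ranked 25 of 31 by FPKM in both libraries when set among 30 enzymes of the alpha/beta hydrolase fold, whose median was 7.69 and 7.80 FPKM. Of the 29 with at least 10 reads, 1 was called higher and 3 lower, beside 2.81% and 7.98% of all genes, and the median log2 ratio was 0.020, beside -0.14 over all genes. The other scalings, which raise every ratio, put that median at 0.11 to 0.16. By the p cutoff alone 2 of the 29 were higher and 6 lower, beside 14.5% and 24.1% of all genes, whereas 3 and 4 passed under TMM and 4 and 4 under the median of ratios (20.4% and 18.2% of all genes). *Ephx1*, a microsomal epoxide hydrolase, had 61 and 133 reads (log2 ratio 1.30, 0.86 to 1.77). *Rbbp9*, a serine hydrolase that binds the retinoblastoma protein, had 225 and 67 reads (-1.56, -1.98 to -1.16). The other calls were *Ovca2* with 110 and 37 reads (-1.38) and *Abhd18* with 45 and 14 reads (-1.47), the latter lost under TMM, the median of ratios and the upper quartile (adjusted p 0.00341, 0.00341 and 0.00226, exact binomial test). With FPKM + 1 the calls of *Ovca2* and *Abhd18* were both lost. No call in this list was left at an assumed coefficient of variation of 0.2 or 0.4.

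**Figure D4:**
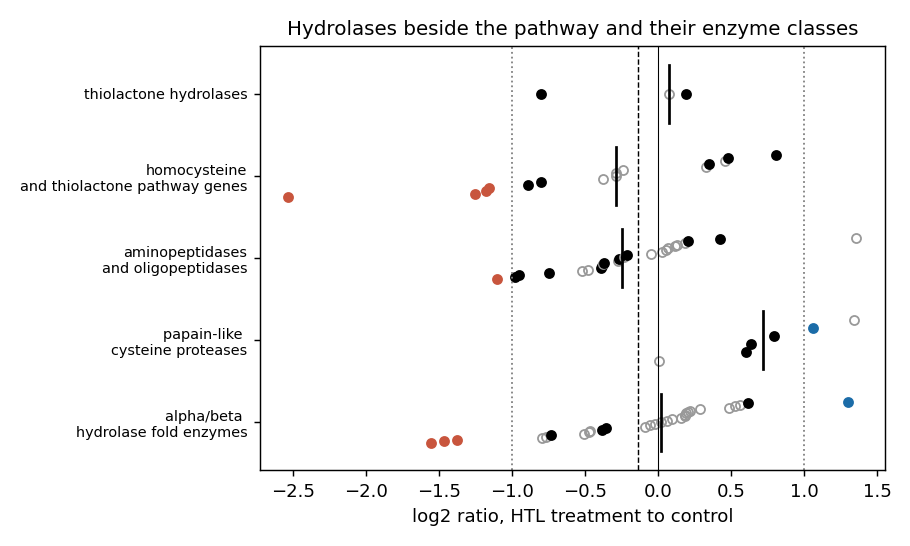
Log2 ratio of HTL treatment to control for each gene with at least 10 reads in the 3 thiolactone hydrolases and 4 lists; blue and red points were called higher and lower, black points passed the adjusted p alone, open points did not, and short bars are list medians. The dashed line is the median of all genes (-0.14); the papain-like proteases have a median of 0.72 and the pathway genes one of -0.29.

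The genes beside each hydrolase on the chromosome were examined with the 3 nearest genes of the table on either side, with distances between the lowest coordinates of the genes (NCBIM37). *Pon2* lies in a chromosome 6 cluster with imprinted genes, that is, genes transcribed from 1 parental copy in some tissues, among them *Peg10* and *Sgce*. Of its 5 neighbours with at least 10 reads, 2 were called lower, beside 7.98% of all genes. *Ppp1r9a*, which encodes the actin-binding protein neurabin, lies 361.1 kb from *Pon2* and stood at -1.41 (-1.68 to -1.15) on 483 and 160 reads. *Peg10*, a gene derived from a retrotransposon, lies 516.8 kb away and stood at -1.08 (-1.16 to -0.998) on 4267 and 1777 reads. Under TMM the log2 ratio of *Peg10* was -0.95, short of the cutoff, as under the median of ratios and the upper quartile, and that of *Ppp1r9a* was -1.28.

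The others around *Pon2* were not called. *Asb4*, 119.2 kb away on the other side, had 119 and 90 reads (-0.22, -0.63 to 0.19), *Slc25a13* 276 and 209 reads (-0.22, -0.48 to 0.049) and *Sgce* 288 and 301 reads (0.25, 0.011 to 0.49). *Pdk4* had 4 and 3 reads. Both called neighbours lie on 1 side of *Pon2*, with *Sgce* beyond them.

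Around *Blmh* 4 neighbours had at least 10 reads and none was called. Their log2 ratios ran from -0.14 (*Gosr1*, 480 and 383 reads) to 0.13 (*Abr*, 911 and 876 reads), with *Cpd*, a carboxypeptidase, at 0.057 and *Coro6* at -0.13 on 15 and 12 reads. *Slc6a4* (5 and 4 reads) and *Efcab5* (1 and 1) were not tested. Around *Bphl* none of 6 neighbours was called. *Tubb2b*, a beta-tubulin, was the lowest at -0.52 (-0.68 to -0.36) on 849 and 522 reads, and its neighbour *Tubb2a*, a near-identical gene whose reads may be shared with it, stood at 0.43 (-0.045 to 0.91) on 70 and 83 reads. *Ripk1* had a log2 ratio of -0.44, *Nqo2* of -0.30, *Psmg4* of 0.13 and *1110046J04Rik* of 0.47 on 13 and 16 reads.

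**Figure D5:**
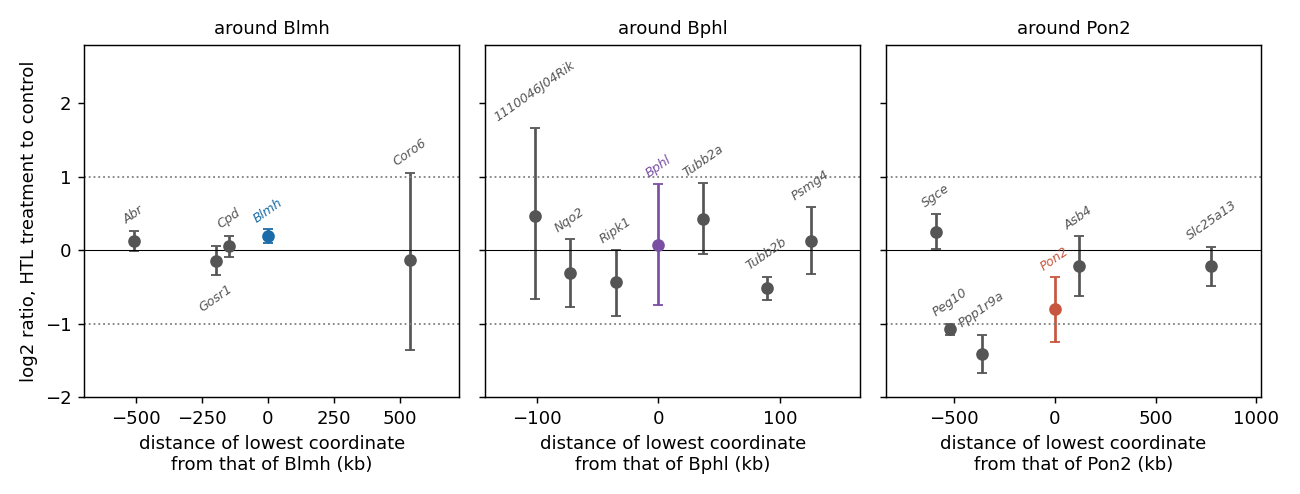
Log2 ratio of HTL treatment to control with exact 95% intervals for each hydrolase gene (coloured) and its tested neighbours (grey), against the distance between their lowest coordinates in kb. Around *Pon2*, *Peg10* (-1.08) and *Ppp1r9a* (-1.41) lie below -1, whereas the neighbours of *Blmh* stay between -0.14 and 0.13.

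Finally, the genes with the most similar levels were sought, as the smallest distance in log2 FPKM over the 2 libraries. For *Pon2* they were *Ints6*, *E4f1* and *Tmem126b* (distances 0.0084, 0.025 and 0.027), with log2 ratios of -0.80, -0.77 and -0.76. *Ints6*, a subunit of the Integrator complex, had 366 and 185 reads and so a narrower interval than *Pon2*, from -1.06 to -0.54. For *Blmh* they were *Snrnp200*, a helicase of the spliceosome, *Scamp3* and *Denr* (distances 0.033, 0.041 and 0.046; log2 ratios 0.18, 0.27 and 0.26). For *Bphl* they were a transcript listed without a symbol, *Tmem82* and *Fam101a* (distances 0.018, 0.032 and 0.037; log2 ratios 0.10, 0.026 and 0.066). Because these genes were picked by their levels in both libraries, log2 ratios close to that of the hydrolase gene follow from the choice. With only 2 libraries such likeness describes a pair of levels and no pattern over conditions.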

How the data were processed

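Total RNA of 1 control and 1 HTL-treated NE4C culture was sequenced; groups came from the sample titles. The authors' methods describe mapping to the mouse genome and read estimates from RSEM; the labels list build mm9, and mapper, versions and use of strand are not given in the sources used here. The authors deposited estimated counts, which are not normalized, and FPKM scaled to transcript length and library size. The deposited log2 ratio, p-value and FDR are the authors' own comparison and were not used. The log2 ratio and p-value used here were computed from the deposited estimated counts.

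Estimated counts were rounded to whole numbers. Of 16803 genes, the 13442 whose reads summed to 10 or more were tested, and 3361 were not, with a two-sided exact binomial test (SciPy 1.17.1) and Benjamini-Hochberg adjustment, with 0.5 read added for log2 ratios. Without replicates a quasi-likelihood test could not be fitted. PCR copies could not be told from separate molecules, and every p, interval and floor reflects counting error alone. Alternatives were TMM and upper quartile scaling and edgeR's exact test with assumed variation (edgeR 4.0.16), the median of ratios (DESeq2 1.42.0), other filters, added reads and cutoffs, FPKM + 1, and centring on 10 classes of transcript length. Comparisons between pairs of genes were chosen after seeing the data. The binomial test was checked on simulated counts. These held counting error alone, with large changes in well-read genes, so the check covers neither spread between cultures nor small changes.

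Genes named were the hydrolases, *Mars* and *Cbs*, the largest called rise and fall of each list (or the extreme log2 ratios), the 3 neighbours on each side and the 3 nearest in FPKM. Other genes named in counts of 5 or fewer, and the marker genes, were chosen after their values were seen. The hydrolases and lists were chosen with earlier results of these data known. Gene spans came from GENCODE vM1 (NCBIM37) by symbol (14712 genes of the table matched), and promoters from RefSeq.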

Additional observations from a re-analysis of the deposited data

How the results depend on the processing

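No paired analysis was possible because neither culture was sequenced in replicate, and no library could be left out. *Blmh* and *Bphl* stayed above 0 and *Pon2* below 0 under each alternative run (11 for *Blmh* and *Pon2*, 10 for *Bphl*, which had too few reads for the filter of a mean of 50). The other filters and the assumed coefficients of variation leave each log2 ratio unchanged by construction, so those runs could not move a sign. Log2 ratios ran from 0.19 to 0.33 for *Blmh*, from 0.052 to 0.21 for *Bphl* and from -0.80 to -0.66 for *Pon2*. The adjusted p of *Pon2* in the exact binomial test rose above 0.001 under TMM (log2 ratio -0.67, p 0.00393), the median of ratios (-0.66, p 0.00398) and the upper quartile (-0.71, p 0.00250), because those scalings raise every log2 ratio. With an assumed coefficient of variation of 0.1, 0.2 and 0.4 in edgeR's exact test, it was 0.0338, 0.414 and 1.0 for *Pon2* (log2 ratio -0.80 as before) and 0.546, 0.900 and 1.0 for *Blmh* (0.19 as before). What the spread between cultures is, these libraries cannot show.

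The count of hydrolase genes called, 0, became 2 without the cutoff on the log2 ratio, where 5195 of all genes passed. The count over all genes, 1450, became 816 with FPKM + 1, 120 at a coefficient of variation of 0.2 and 6 at 0.4. Lower calls made up 73.9% of it, 59.2% under TMM, 58.5% under the median of ratios, 63.3% under the upper quartile and 60.1% after centring on length. The 4 calls among pathway genes became 3 with FPKM + 1, 1 at 0.2 and 0 at 0.4. The 1 call among aminopeptidases became 0 under TMM, the median of ratios, FPKM + 1, centring on length, 0.2 and 0.4. The 1 call among papain-like proteases became 0 with FPKM + 1 and at 0.1, 0.2 and 0.4, and the 4 among alpha/beta hydrolases became 3 under the other scalings, with no filter, with a mean of 50 reads and at 0.1, 2 with FPKM + 1, and 0 at 0.2 and 0.4. *Bphl* is limited by depth, with 28 and 26 reads.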
